A study of Mus musculus with 24 samples.

Results

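The 6 genes described here are 3 Kruppel-like factors, Klf2, Klf4 and Klf6, and the 3 members of the NR4A family, Nr4a1, Nr4a2 and Nr4a3. They were listed by symbol, out of 55335 genes in the blood files and 56883 gene names in the surface tables. They were selected on measured values of these same libraries, their counts in blood and their TPM (a length-corrected share of the transcripts in a library) on the cell surface, so all of their values, differences between groups included, are given as a description and without a test. Test results are given for other genes, in lists that were also chosen with earlier results of these data known. For the 6, whether they passed the threshold of the fit over all genes is stated once, as part of that description.

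The libraries are of 2 kinds, all from mice of wild-type genotype. The first 9 libraries hold total RNA of PBMCs, the mononuclear cells of peripheral blood, 3 each with the treatment named ct, WT or Y. The labels do not explain these letters, and they are used here as given. Surface RNA was measured in 15 libraries, 3 each from B cells, T cells and natural killer (NK) cells of C57BL/6 spleen and from monocytes and HSPCs, the stem and progenitor cells of blood formation, of C57BL/6 bone marrow. In this assay, AMOUR, RNA exposed on the outer membrane of fixed, bead-bound cells is copied in place by T7 RNA polymerase. The study states that no current method, AMOUR included, wholly excludes contaminating RNA from inside the cells. All 5 cell types were taken with magnetic isolation kits. The kit used for the T cells selects CD8 T cells, and HSPCs are the cells left after depletion of lineage-positive cells. The study describes the surface libraries of a cell type as independent biological replicates. For the PBMCs the labels do not say which libraries came from separate mice, so the spread between the 3 libraries of a blood group may be technical. Age and sex are not given in the sources used here.

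Kruppel-like factors are zinc finger proteins that bind GC-rich and CACCC sequences. Klf2 keeps T cells quiescent and drives the receptors with which lymphocytes leave and enter lymphoid organs. Klf4 takes part in monocyte differentiation, and Klf6 is widely expressed and induced in activated myeloid cells. The NR4A proteins, known as Nur77 (Nr4a1), Nurr1 (Nr4a2) and Nor1 (Nr4a3), are orphan nuclear receptors that act without a known physiological ligand. Their genes are immediate early genes, switched on within a short time of antigen receptor, growth factor or stress signals, and Nr4a1 is needed for the Ly6C-low, non-classical subset of monocytes. Transcription of NR4A genes is driven in part by CREB, which binds cAMP response elements (CREs), and by MEF2 factors.

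In the annotation that matched the gene identifiers of the blood files (GENCODE M21, build GRCm38), all 6 are protein-coding genes. Klf2 lies on chromosome 8 (72319033 to 72321656, plus strand), Klf6 on chromosome 13 (5861482 to 5870394, plus strand) and Klf4 on chromosome 4 (55527143 to 55532466, minus strand). Nr4a3 is also on chromosome 4 (48045153 to 48086447, plus strand), Nr4a1 on chromosome 15 (101254269 to 101274795, plus strand) and Nr4a2 on chromosome 2 (57106830 to 57124003, minus strand). No other annotated gene overlaps any of the 6. The start of Nr4a1 is that of its longest isoform, upstream of the RefSeq start used for the promoter below.

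Promoters were read from RefSeq for all 6 genes (250 bases before and 50 after the start site, GRCm38.p6) because Nr4a1 and Nr4a3 had like patterns in blood, as described further on. The CRE half-site, TGACG on either strand, was found 4 times in each NR4A promoter, once in Klf2, once in Klf4 and 0 times in Klf6. Of 32851 promoters of the same length, 20.8% held at least 1 half-site and 0.231% held 4 or more. The stretches that hold the half-sites are printed 5′ to 3′ on the strand of the gene, with each half-site in capitals. Their positions are chr15:101266603-101266820 for Nr4a1, chr2:57124100-57124213 for Nr4a2, chr4:48045064-48045172 for Nr4a3, chr8:72318812-72318835 for Klf2 and chr4:55532693-55532717 for Klf4.
Nr4a1: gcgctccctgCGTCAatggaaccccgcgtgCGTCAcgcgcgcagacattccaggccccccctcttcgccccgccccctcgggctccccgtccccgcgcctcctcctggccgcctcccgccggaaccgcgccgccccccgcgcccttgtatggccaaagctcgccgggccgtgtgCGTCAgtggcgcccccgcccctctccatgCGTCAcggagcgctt
Nr4a2: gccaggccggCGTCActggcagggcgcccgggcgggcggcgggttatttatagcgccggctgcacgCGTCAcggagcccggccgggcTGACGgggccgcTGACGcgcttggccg
Nr4a3: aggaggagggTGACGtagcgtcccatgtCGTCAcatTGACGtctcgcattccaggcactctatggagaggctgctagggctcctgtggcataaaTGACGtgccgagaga
Klf2: ctggtttgtTGACGccgtcgccat
Klf4: gcctggctggCGTCAcggcctggcc

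The half-site nearest to the start began 40 bases upstream in Nr4a1, 111 in Nr4a2 and 147 in Nr4a3, and the single ones of Klf4 and Klf2 began 232 and 241 bases upstream. The whole CRE, TGACGTCA, which holds a half-site on each strand, was in 1.79% of the promoters and in none of the 6. A MEF2 site was found in 1 copy each in Klf2 and Nr4a2, against 3.19% of all promoters. These stretches are shown with the match in capitals, at chr8:72318934-72318963 for Klf2 and chr2:57124151-57124180 for Nr4a2. The second lies within the Nr4a2 stretch above.
Klf2: tataccgcggCTAAATTTAGgctgagcccg
Nr4a2: gggcggcgggTTATTTATAGcgccggctgc

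The binding element of NR4A proteins, AAAGGTCA, was in 1.51% of the promoters and in none of the 6, on either strand. The CArG box, bound by the serum response factor, was in 1.63% and also in none. The GC box GGGCGG, which Sp and Kruppel-like proteins bind, was searched on both strands like the rest and occurred in all 6, from 1 copy in Klf6 and Nr4a3 to 5 in Nr4a2, and in 35.7% of all promoters. The CACCC core CCACCC was in Klf2, Nr4a2 and Nr4a3, 1 copy each, and in 31.5% of all promoters. A match gives letters only, and binding was not measured here.

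In PBMC total RNA, the libraries held 4686387 to 9055761 counts, of which 50.5% to 57.0% fell on a single gene, CT010467.1, and all 6 genes passed the filter on low counts. TPM, which allow for transcript length, order them by level. Klf2 was at 12.4 ± 1.87 TPM and Nr4a1 at 10.3 ± 2.91 TPM (SD, n = 9), with overlapping ranges of 9.88 to 15.3 and 7.42 to 16.3. Klf6 followed at 4.46 ± 1.04 TPM, below every value of the first pair. Nr4a3, at 0.750 to 2.65 TPM, overlapped Klf4, at 0.650 to 1.64 TPM. Nr4a2 came last at 0.320 ± 0.172 TPM, on 3 to 21 counts per library. Its highest library by TPM, Y replicate 1 at 0.680, just passed the lowest of Klf4. That library had the fewest Nr4a2 counts, so this overlap rests on 3 counts. At that depth Nr4a2 is measured with little precision.

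Nr4a3, the sparsest of the NR4A genes after Nr4a2, differed most between the blood groups. Its CPM (counts as a share of the library size, scaled with TMM factors) were 6.18, 5.99 and 4.27 in the ct libraries, 12.2, 11.9 and 12.7 in those of WT and 4.58, 5.34 and 5.03 in those of Y. Every WT library was above every ct and Y library, and the ct and Y libraries overlapped. The means were 5.48 ± 1.05 in ct, 12.3 ± 0.413 in WT and 4.98 ± 0.379 in Y (SD, n = 3). The fitted log2 difference was 1.17 ± 0.15 (SE) for WT minus ct, a 2.25-fold higher level, −1.28 ± 0.15 for Y minus WT and −0.11 ± 0.18 for Y minus ct. Since the comparisons share the ct or the WT libraries, one high or low group enters 2 of them.

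Nr4a1 had the same order at a smaller size. It measured 68.6, 67.9 and 58.5 CPM in the ct libraries, 91.7, 87.0 and 85.4 in those of WT and 58.3, 65.6 and 59.0 in those of Y. WT again stood above both other groups without overlap, and ct and Y overlapped. The log2 difference was 0.44 ± 0.09 for WT minus ct, or 1.36-fold, −0.53 ± 0.09 for Y minus WT and −0.09 ± 0.09 for Y minus ct.

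Nr4a2 could not be placed. It measured 1.19, 2.55 and 1.07 CPM in the ct libraries, 0.982, 2.66 and 2.55 in those of WT and 0.655, 0.781 and 1.29 in those of Y. The 3 groups overlapped, and WT replicate 1 was below all 3 ct libraries. The log2 differences were 0.38 ± 0.42 for WT minus ct, −0.70 ± 0.50 for Y minus ct and −1.08 ± 0.48 for Y minus WT, with errors several times those of Nr4a1.

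Among the Kruppel-like factors, Klf6 separated the 3 groups in order. It measured 53.3, 49.1 and 50.2 CPM in the ct libraries, 62.6, 61.6 and 60.7 in those of WT and 47.1, 44.9 and 46.2 in those of Y. No 2 of the groups overlapped, with WT highest and Y lowest. The log2 difference was 0.28 ± 0.08 for WT minus ct, −0.14 ± 0.08 for Y minus ct and −0.42 ± 0.08 for Y minus WT.

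Klf2, the highest of the 6 by mean TPM over the 9 blood libraries, where Nr4a1 overlapped it, hardly separated the groups. It measured 80.3, 89.5 and 72.5 CPM in the ct libraries, 89.2, 81.7 and 88.2 in those of WT and 74.8, 82.9 and 67.4 in those of Y, and all 3 groups overlapped. Its log2 differences were 0.10 ± 0.10, −0.10 ± 0.10 and −0.20 ± 0.10 for WT minus ct, Y minus ct and Y minus WT. Klf4 measured 7.37, 6.29 and 5.69 CPM in the ct libraries, 6.87, 6.97 and 8.48 in those of WT and 6.33, 6.90 and 7.23 in those of Y. These groups overlapped too, and the differences were 0.19 ± 0.15, 0.09 ± 0.16 and −0.10 ± 0.16 in the same order.

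**Figure D1:**
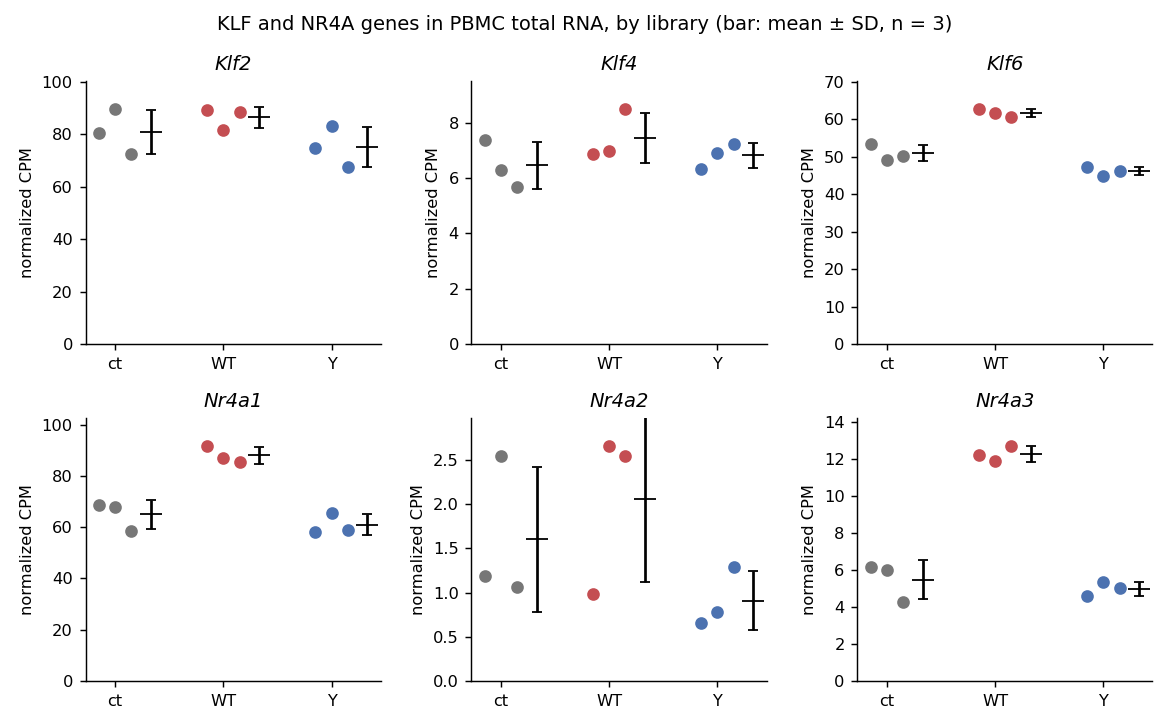
Normalized CPM (vertical axis, from 0) of each of the 6 genes in the 9 PBMC libraries, with 3 points per group and the mean ± SD beside them. The WT points of Nr4a1, Nr4a3 and Klf6 lie above all ct and Y points, while those of Klf2, Klf4 and Nr4a2 mix with the other groups.

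Because these differences entered the choice of the genes, the counts past a threshold carry no weight of their own and are given for reference. At an adjusted p of 0.05 in edgeR's quasi-likelihood test over 11635 genes, Nr4a1 and Nr4a3 were past it for WT minus ct, where 0.765% of all genes were higher and 1.6% lower. None of the 6 was past it for Y minus ct, where 0.266% were higher and 0.438% lower (1002 genes had an unadjusted p under 0.05). Klf6, Nr4a1 and Nr4a3 were past it for Y minus WT, where 0.438% were higher and 0.817% lower. Without Y replicate 3 neither Klf6 nor Nr4a1 was past it for Y minus WT, and without Y replicate 2 Klf6 was not, while Nr4a3 was in each of the 9 fits without 1 library. For WT minus ct Klf6 was not past it, in the main fit or in any of the 15 alternatives tried. All WT libraries stood above all ct libraries for 3 of the 6 and for 7.62% of all genes. All Y libraries stood below all WT libraries for the same 3 and for 8.75% of all genes, and below all ct libraries for Klf6 and 7.55% of all genes. The median log2 difference of the 6 was 0.33 for WT minus ct, −0.11 for Y minus ct and −0.47 for Y minus WT, and that of all genes tested was 0.00 each time.

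WT was also highest for 3 other Kruppel-like genes, which were tested. Of 14 other Klf genes listed, 8 had enough counts. Klf10, a gene induced by TGF-beta signals, rose from 14.0 ± 0.676 CPM in ct to 20.6 ± 1.25 in WT and was at 13.8 ± 2.96 in Y (SD, n = 3). Klf11 rose from 8.00 ± 0.707 to 11.99 ± 1.72 CPM and was at 7.70 ± 0.846 in Y, and Klf16 rose from 11.6 ± 0.976 to 16.3 ± 0.878 CPM and was at 11.4 ± 1.79 in Y. Their log2 differences for WT minus ct were 0.56 ± 0.12, 0.59 ± 0.14 and 0.50 ± 0.12 in edgeR (adjusted p = 0.0184, 0.0319 and 0.0340). For Y minus WT they were −0.62 ± 0.13, −0.64 ± 0.14 and −0.54 ± 0.12 (adjusted p = 0.0196, 0.0399 and 0.0424). None of the 8 passed for Y minus ct, and the other 5 passed in no comparison. The median of the 8 was 0.21 for WT minus ct and −0.33 for Y minus WT.

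These 3 calls were near the threshold. With DESeq2 none of them passed in either comparison, and leaving out 1 library ended the call of Klf10 in 5 of 9 cases, of Klf11 in 4 and of Klf16 in 5 for WT minus ct, and in 4, 6 and 7 of 9 for Y minus WT. For WT minus ct the highest adjusted p without 1 library was 0.0743 for Klf10 (without ct replicate 3), 0.153 for Klf11 and 0.156 for Klf16 (both without ct replicate 1). For Y minus WT it was 0.173 for Klf10, 0.271 for Klf16 (both without Y replicate 3) and 0.216 for Klf11 (without Y replicate 2). The direction held in each of the 15 alternatives tried.

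**Figure D2:**
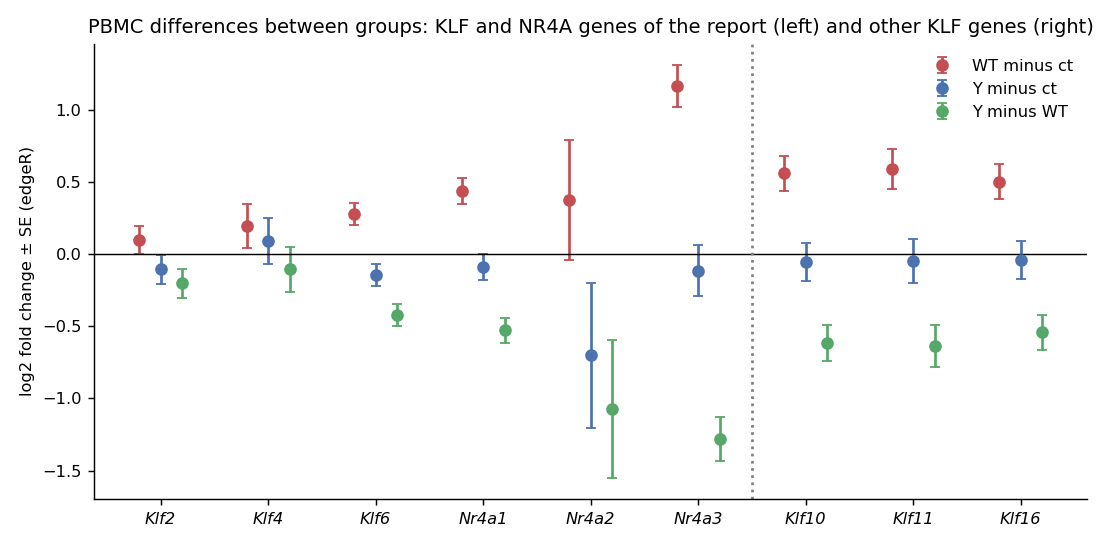
Log2 fold change ± SE (vertical axis, edgeR) for WT minus ct, Y minus ct and Y minus WT, for the 6 genes at left and Klf10, Klf11 and Klf16 at right of the dotted line. WT minus ct lies above 0 and Y minus WT below 0 for all 9 genes, and Y minus ct lies nearer to 0 than Y minus WT for each of them.

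NR4A genes belong to a wider set of immediate early genes, and that set was counted as well. Its list was chosen with earlier results of these data known, so its counts and tests are no independent support. Of 16 listed, 15 were tested. Of these, 11 were higher in WT than in ct and 0 lower, and 12 were lower in Y than in WT and 0 higher. Over all 11635 genes tested, 0.765% were higher and 1.6% lower in WT than in ct. For Y against WT, 0.438% were higher and 0.817% lower. The median log2 difference of the 15 immediate early genes was 0.46 for WT minus ct and −0.60 for Y minus WT. Atf3 (0.88 ± 0.18, adjusted p = 0.0110), Jun (0.76 ± 0.09, 0.000228), Ier3 (0.70 ± 0.16, 0.0287) and Egr1 (0.66 ± 0.12, 0.00703) rose most in WT against ct in edgeR. Jun (−1.13 ± 0.09, adjusted p = 5.99e-06), Dusp1 (−0.98 ± 0.09, 1.21e-05), Atf3 (−0.91 ± 0.18, 0.0194) and Dusp2 (−0.86 ± 0.10, 0.000164) fell most in Y against WT. Jun and Atf3 encode AP-1 and ATF factors, and Dusp1 and Dusp2 phosphatases that switch off MAP kinases. For Y minus ct only Dusp1 passed, lower at −0.47 ± 0.09 (adjusted p = 0.0146), and its call ended without ct replicate 2 or without any 1 of the Y libraries (highest adjusted p 0.104, without Y replicate 3). With DESeq2 the call of Ier3 ended for WT minus ct (adjusted p = 0.221) and that of Atf3 for Y minus WT. Leaving out 1 library ended each of these calls in 5 of 9 cases as well, with a highest adjusted p of 0.106 for Ier3 (without WT replicate 1) and 0.114 for Atf3 (without Y replicate 2). The call of Atf3 for WT minus ct ended without WT replicate 3 (0.0545).

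Factors that act with or upstream of these genes were counted next. Of 18 partners and inducers, among them the retinoid X receptors, MEF2 factors, CREB1 and its coactivators and the NFAT factors, 16 were tested and none passed in any of the 3 comparisons. Neither did any of 4 SP factors tested or of the 6 trafficking genes that KLF2 is known to drive, S1pr1 among them. Their medians for WT minus ct were 0.01, 0.05 and 0.02.

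Genes of the non-classical monocytes that need Nr4a1 were followed beside it. Of 10, none differed between WT and ct or between Y and ct, and Ace alone was lower in Y than in WT (−0.40 ± 0.09, adjusted p = 0.0424 in edgeR, 0.147 in DESeq2). Of 6 classical monocyte genes, Ly6c2 was higher in WT than in ct (0.64 ± 0.12, adjusted p = 0.00703 in edgeR, 0.0540 in DESeq2), and F13a1 (−0.36 ± 0.09, 0.0399) and Vcan (−2.03 ± 0.46, 0.0247) were lower. In Y, Mmp8 was higher than in ct (1.23 ± 0.19, 0.00439) and than in WT (1.87 ± 0.21, 0.000142), Ly6c2 was lower than in WT (−0.77 ± 0.13, 0.00403) and Vcan was higher than in WT (2.41 ± 0.45, 0.0109). Mmp8 is a neutrophil collagenase. DESeq2 gave no adjusted p for Vcan, and that of F13a1 was 0.211. The call of F13a1 held in 1 of 9 edgeR fits without 1 library (highest adjusted p 0.236, without WT replicate 2) and that of Ace in 3 of 9 (0.234, without Y replicate 3). The call of Vcan held in 5 of 9 for WT against ct (0.141, without ct replicate 1) and in 6 of 9 for Y against WT (0.0624, without WT replicate 2). That of Ly6c2 for Y against WT held in 8 of 9 (0.0536, without Y replicate 3).

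The makeup of the blood libraries differed between groups as well. Summed erythroid markers were at 6864 to 8234 CPM in ct, 4269 to 4955 in WT and 4438 to 5010 in Y. Platelet markers were at 407 to 440, 260 to 287 and 325 to 326 CPM. NK markers were at 56.6 to 60.5 CPM in ct, 74.4 to 82.1 in WT and 53.6 to 59.4 in Y, and monocyte markers at 255 to 288, 287 to 305 and 245 to 261. Neutrophil markers were at 75.4 to 90.2 CPM in ct, 69.2 to 75.6 in WT and 201 to 214 in Y, with Elane at 0 in all ct and Y libraries. Between WT and ct that sum joins opposite moves. Of 5 neutrophil markers tested, Ngp was higher in WT (log2 1.31 ± 0.19, SE), and S100a8 (−0.71 ± 0.10) and S100a9 (−0.41 ± 0.10) were lower. B cell markers (209 to 220, 225 to 232 and 210 to 219) and T cell markers (167 to 192, 168 to 175 and 178 to 186) moved less. HSPC markers were at 25.6 to 28.2, 18.1 to 19.1 and 18.2 to 20.1. The part of these shifts in the values of the 6 genes was not tested, and in bulk RNA fewer cells of a type and less RNA per cell cannot be told apart.

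Over the 9 blood libraries, Nr4a1 and Nr4a3 were each other's closest gene of 11635 by log2 CPM (Pearson r = 0.982). Next came Kdm6b (0.966) and Ppp1r10 (0.966) for Nr4a1, and Ppp1r10 (0.977) and Midn (0.973) for Nr4a3. Closest to Klf6 were the clock gene Per1 (0.967), Nrbp1 (0.966) and Tnfaip3 (0.962), an NF-kB feedback inhibitor. Klf6 itself reached 0.917 with Nr4a1 and 0.923 with Nr4a3. Klf2 was nearest to Trex1 (0.937), Paxip1 (0.933) and Polr3g (0.932), Klf4 to Ofd1 (0.904) and Fadd (0.901), and Nr4a2 to Tcf3 (0.945), Qprt (0.940) and Atxn7l2 (0.938). The 9 points share their groups and normalization, so these are descriptions of which patterns look alike.

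In surface RNA, the TPM values say what share of a library a transcript holds and keep no depth. Transcripts annotated as protein coding held 16.9% to 18.1% of the TPM in monocytes and 0.645% to 2.96% in the 12 libraries of the other cell types. The monocytes were also sequenced on another platform, so cell type and platform cannot be told apart. Each member is therefore given as TPM and, further on, relative to the protein-coding TPM of its library. Except for HSPCs, each cell type was highest for the markers of its label. B cell markers summed to 209 to 328 TPM in B cells and at most 18.3 elsewhere, T cell markers to 23.4 to 67.2 in T cells and at most 8.97 elsewhere, NK markers to 210 to 528 in NK cells and at most 37.3 elsewhere, and monocyte markers to 2719 to 3255 in monocytes and at most 31.9 elsewhere. HSPC markers were at 10.7 to 16.7 TPM in HSPCs but at 29.6 to 33.1 in monocytes. In NK cells they were at 7.40 to 14.6 TPM, which overlapped HSPCs. Neutrophil and granule markers summed to 1797 to 2161 TPM in monocytes, 88.3 to 230 in HSPCs and 32.1 to 43.5 in NK cells. The monocyte libraries also held 85.6 to 122 TPM of platelet markers. The part of these other markers in the values below was not tested.

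Klf2 was detected in the surface libraries of every cell type, at low TPM in HSPCs. Monocytes held 122, 142 and 146 TPM, B cells 34.6, 28.0 and 28.0, T cells 8.18, 22.0 and 15.3, NK cells 9.92, 23.5 and 20.4 and HSPCs 0.681, 1.62 and 1.15. Monocytes were highest, then B cells, above T and NK cells, which overlapped, and HSPCs were lowest. At each replicate number the NK library was above the T library. Genes were ranked by TPM over all isoforms, among the 21502 gene names with protein-coding transcripts. Klf2 ranked 138 to 148 in B cells, 125 to 144 in T cells, 193 to 241 in monocytes and 2666 to 4083 in HSPCs.

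Klf4 was almost confined to monocytes. It was at 109, 109 and 116 TPM there and between 0.173 and 1.66 TPM in the 12 other libraries, with no overlap. Among those, NK cells (1.41 ± 0.268, SD, n = 3) and B cells (0.972 ± 0.614) overlapped, B cells overlapped HSPCs (0.517 ± 0.1002), and T cells were lowest (0.202 ± 0.0419). Its rank was 262 to 280 in monocytes and 2459 to 8437 elsewhere.

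For Klf6, monocytes held 143, 119 and 139 TPM, NK cells 10.7, 18.0 and 14.1, T cells 4.10, 11.4 and 8.77, B cells 9.56, 4.80 and 2.74 and HSPCs 1.75, 2.91 and 2.81. Monocytes were highest by far. NK cells overlapped T cells, although the NK library was the higher at each replicate number. T cells overlapped B cells, and B cells overlapped HSPCs.

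For Nr4a1, monocytes held 71.2, 83.0 and 71.6 TPM, NK cells 5.80, 15.9 and 22.4, B cells 5.74, 1.89 and 1.37, T cells 1.06, 2.08 and 1.43 and HSPCs 0.763, 1.07 and 0.585. Monocytes stood above all other libraries and NK cells above the remaining 3 types. B cells overlapped T cells, and the lowest T cell library was just under the highest HSPC library.

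Nr4a2 and Nr4a3 had another order, with NK cells first. For Nr4a2, NK cells held 3.42, 7.86 and 7.46 TPM, monocytes 3.14, 3.70 and 3.48, T cells 0.778, 1.27 and 1.15, HSPCs 0.161, 0.325 and 0.211 and B cells 0.118, 0.0880 and 0.0488. For Nr4a3, NK cells held 3.32, 8.05 and 10.4 TPM, T cells 1.17, 2.07 and 1.64, monocytes 1.23, 2.49 and 0.899, B cells 0.585, 0.270 and 0.349 and HSPCs 0.0589, 0.127 and 0.0338. NK cells overlapped monocytes for Nr4a2 only, and for Nr4a3 T cells and monocytes overlapped.

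Above 50 TPM, the level at which the study calls a surface RNA positive, were Klf2, Klf4, Klf6 and Nr4a1, in all 3 monocyte libraries and in none of the 12 others. Nr4a2 and Nr4a3 were below it everywhere. Of the 21502 gene names with protein-coding transcripts, 2.9% were above 50 TPM in all 3 monocyte libraries.

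**Figure D3:**
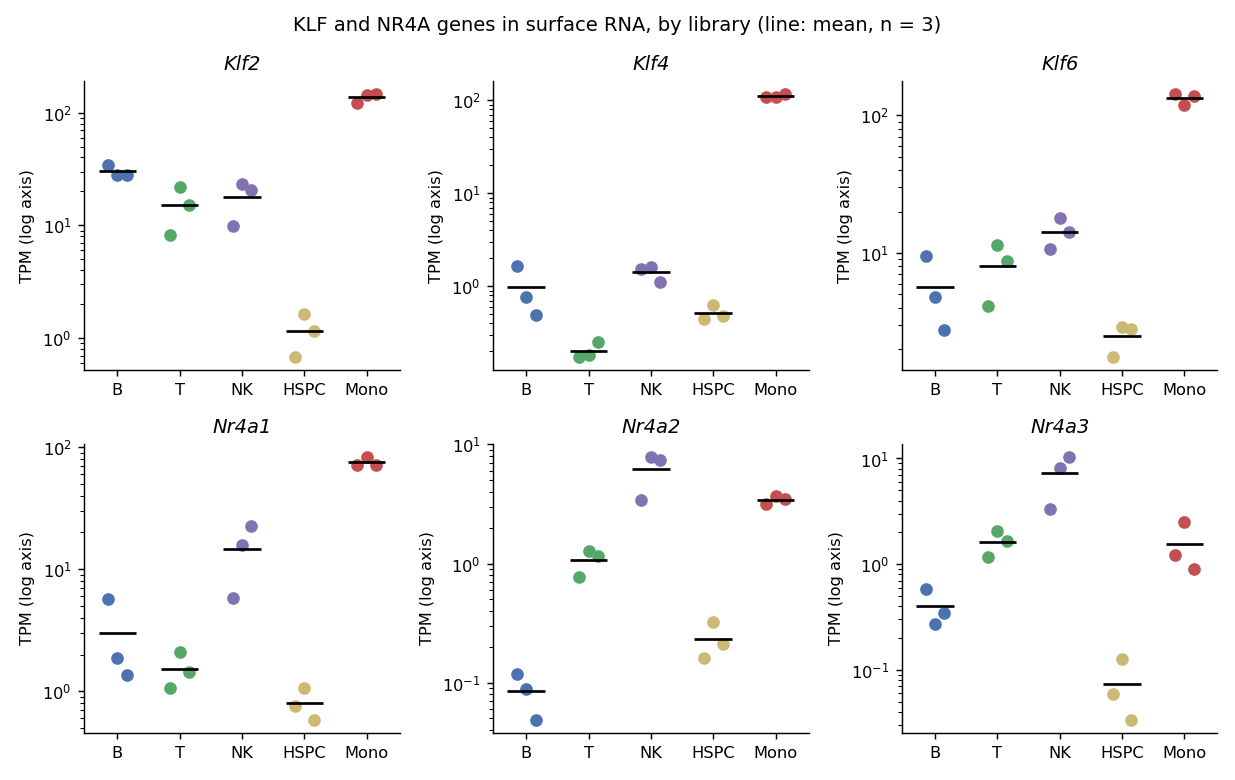
TPM (log axis) of the 6 genes in the 15 surface libraries, 3 points per cell type with the mean as a line. Monocytes are highest for Klf2, Klf4, Klf6 and Nr4a1, and NK cells for Nr4a2 and Nr4a3, where no monocyte library exceeds 3.70 TPM.

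Set against the other 4 cell types, on the log2(TPM + 1) scale, monocytes were higher by 6.05 ± 0.17 (SE) for Klf4, 4.30 ± 0.32 for Nr4a1, 4.22 ± 0.30 for Klf6 and 3.57 ± 0.29 for Klf2. Nr4a2 and Nr4a3 did not exceed 10 TPM in 3 libraries and were not in the fit over all genes. Their plain differences were 1.09 and 0.07, and leaving out monocyte replicate 2 or NK replicate 1 alone turned that of Nr4a3 negative (−0.18, and just below 0). With transcripts rescaled to the protein-coding ones alone the differences turned to −0.50 and −2.07, and after quantile normalization to −0.78 and −1.26, while the other 4 genes stayed positive on both, with Klf2 lowest (0.50 on the first). Most genes differed in the same direction on the TPM scale. In limma (adjusted p under 0.05), 91.6% of the 5139 genes in the fit were higher in monocytes and 3.81% lower, with a median of 3.00. That share rests on the filter, which 4059 of them passed only with the help of the monocyte libraries, Klf4 and Nr4a1 included. Among the 1080 genes that passed it in the other 12 libraries, such as Klf2 and Klf6, 61.2% were higher and the median was 1.57, and with no filter 52.7% of 37092 genes were higher. Higher calls were 96.0% of all calls in the fit, but 69.9% (4337 higher and 1867 lower of 10221 genes, median 0.38) among protein-coding transcripts alone and 69.6% (2497 higher and 1091 lower of 5139, median 0.26) after quantile normalization.

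The order of the cell types changed when each library was set relative to its protein-coding TPM, all isoforms of a gene included (in ppm of that sum). Klf2 then stood at 1329 ± 103 ppm in T cells and 1266 ± 116 in B cells (SD, n = 3), which overlapped, above 778 ± 79.0 in monocytes and 765 ± 153 in NK cells, which also overlapped, and 71.4 ± 12.4 in HSPCs. Klf4 kept monocytes first, at 633 ± 17.7 ppm against 12.1 to 102 in the 12 others. Klf6 was at 757 ± 52.3 in monocytes, 704 ± 60.1 in T cells and 639 ± 140 in NK cells, whose libraries overlapped, and at 225 ± 98.8 in B cells and 159 ± 11.4 in HSPCs, which overlapped as well.

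For the NR4A genes, this scale placed NK cells first each time. Nr4a1 was at 595 ± 188 ppm in NK cells and 429 ± 53.6 in monocytes, with overlap, and between 35.8 and 199 in the remaining libraries. Nr4a2 was at 266 ± 44.6 in NK cells, 100 ± 18.8 in T cells, 19.6 ± 2.11 in monocytes, 14.6 ± 2.04 in HSPCs and 3.43 ± 0.878 in B cells, with no overlap between neighbours in that order. Nr4a3 was at 298 ± 67.0 in NK cells, 152 ± 26.3 in T cells, 16.4 ± 4.45 in B cells, 8.88 ± 5.16 in monocytes and 4.61 ± 2.32 in HSPCs. NK cells, T cells and B cells did not overlap each other, while monocytes overlapped both B cells and HSPCs. Klf4 is thus the one of the 6 for which monocytes stood above every other library on both of these scales. Of the 37092 gene names above 0 in any library, 41.3% had every monocyte library above the other 12 by TPM, and 9.95% on both scales.

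**Figure D4:**
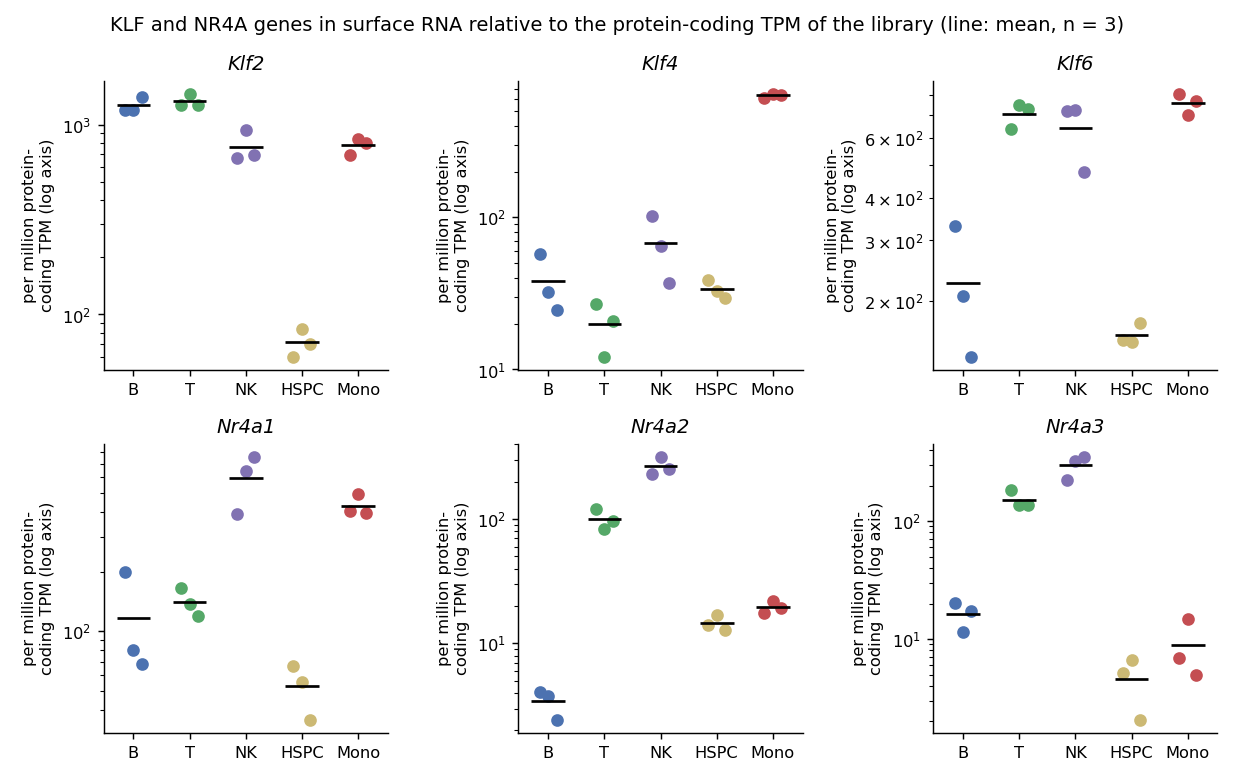
The same genes and libraries, as the gene's TPM in ppm of the protein-coding TPM (log axis), with the mean of 3 libraries as a line. Only for Klf4 do the 3 monocyte points lie above all others; T and B cells lead for Klf2 and NK cells for the NR4A genes.

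Isoforms of Klf6 differed between cell types. Klf6-201, its protein-coding transcript, held 83.5% of the Klf6 TPM in monocytes, 53.4% in HSPCs, 38.3% in NK cells, 33.1% in T cells and 30.4% in B cells. Klf6-203, annotated as a target of nonsense-mediated decay, held 13.7%, 38.8%, 54.7%, 59.2% and 66.4% in that order. In each of the 9 spleen libraries Klf6-203 was the larger of the pair, and in each of the 6 bone marrow libraries Klf6-201 was. By protein-coding transcripts alone, Klf6 stood at 633 ± 35.4 ppm in monocytes, 242 ± 41.2 in NK cells, 231 ± 34.1 in T cells, 66.0 ± 49.4 in B cells and, in HSPCs, 85.1 ± 2.25, so the overlap of monocytes with T and NK cells seen over all isoforms was not present on that count. Estimated TPM of isoforms that share exons depend on the quantification, and no read coverage was used here.

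**Figure D5:**
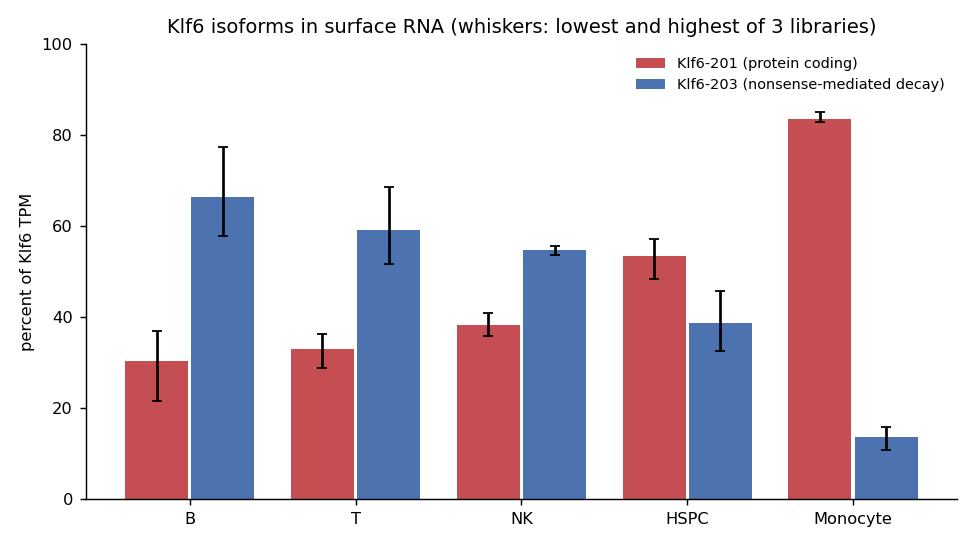
Share of the Klf6 TPM (percent, from 0) in the protein-coding isoform Klf6-201 and in Klf6-203, annotated to nonsense-mediated decay, for each cell type, with whiskers from the lowest to the highest of 3 libraries. Klf6-203 is the larger in B, T and NK cells and is at 13.7% in monocytes.

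Nr4a1 was mostly its protein-coding isoforms, from 79.7% ± 9.41 in NK cells to 92.3% ± 1.67 in monocytes (mean of library percentages, SD, n = 3). Shares of single isoforms are given of the mean TPM of a cell type, so they need not add up with these means. Nr4a1-201 was the leading one in every cell type, at 51.5% to 81.8% of the gene. A retained-intron transcript, Nr4a1-204, held 23.6% in NK cells (9.44% to 25.9% in single libraries) and 18.0% in T cells. For Nr4a3 the leading transcripts, Nr4a3-204 and Nr4a3-202, have no defined coding sequence, and they held 49.3% and 41.7% of its TPM in NK cells and 54.8% and 37.4% in T cells. Nr4a2 was split likewise in NK cells, with 54.5% in Nr4a2-205, also without a defined coding sequence, and 36.5% in the coding Nr4a2-202. Klf2 has a single transcript in these tables, and all Klf4 transcripts found were coding, with Klf4-201 at 92.7% in monocytes.

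Of the other 14 Kruppel-like genes, Klf13, Klf9, Klf11, Klf10 and Klf3 were in the surface fit. None of these 5 passed the filter without the monocyte libraries, so their direction was fixed by it and their differences are given without a test. They were 4.16 ± 0.28 for Klf13, 3.64 ± 0.17 for Klf9, 2.88 ± 0.23 for Klf11, 2.34 ± 0.23 for Klf10 and 2.31 ± 0.29 for Klf3 (log2, SE). Klf10 turned to −0.66 when rescaled among protein-coding transcripts alone and to −0.54 under quantile normalization. Klf1, the erythroid factor, reached 3.93 ± 0.746 TPM in HSPCs (SD, n = 3), where erythroid markers summed to 18.9 to 40.2 TPM. NK cells had 3.52 ± 1.72 TPM of Klf1 beside 11.9 to 65.0 TPM of those markers, and monocytes 0.755 ± 0.455 TPM beside 25.6 to 40.8.

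The other lists are counted here over the genes that passed the filter in the other 12 libraries too. Of all 1080 genes that passed there, 661 (61.2%) were higher in monocytes and 195 lower, with a median of 1.57. Of 12 immediate early genes in the fit, 7 did, and 6 of these were higher in monocytes and 0 lower, with a median of 4.08. Fos (5.59 ± 0.43, adjusted p = 1.24e-10 in limma), Dusp1 (5.49 ± 0.37, 1.26e-11) and Jun (4.35 ± 0.37, 4.81e-10) were the most different of those. Among protein-coding transcripts alone they were at 2.37, 2.51 and 1.29, and after quantile normalization at 4.49, 4.06 and 1.67. Of 6 classical monocyte genes only Ly6c2 did (6.51 ± 0.31, adjusted p = 7.94e-14 in limma), and it was at 3.57 and 5.30 on those scales. Mef2c, of 9 partners and inducers, and Pou2f2, of 4 non-classical monocyte genes, were the only ones of their lists, at 2.47 ± 0.22 and 2.40 ± 0.15. Mef2c turned to −0.23 among protein-coding transcripts alone, and Mef2c and Pou2f2 to −0.26 and −0.21 under quantile normalization. None of the 3 SP factors in the fit passed without monocytes. Ccr7, the receptor that leads lymphocytes to lymph nodes, passed through other libraries alone and was lower in monocytes, by −2.06 ± 0.25, given without a test for the same reason.

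Over the 15 surface libraries, on log2(TPM + 1) and among 5139 genes, Klf4 was closest to Tdrd7 (Pearson r = 0.999), Usp8 (0.997) and Lin7c (0.997), and Klf2 to Ppp1r18 (0.988), Arhgef18 (0.984) and Ccm2 (0.983). Klf6 was closest to Sfxn3 (0.990), Mbnl1 (0.987) and Tgif1 (0.987), and Nr4a1 to Kdm6b (0.986), Dennd4a (0.984) and Ptger4 (0.983). Kdm6b, a histone demethylase, was thus among the 3 nearest to Nr4a1 in blood and on the surface alike. The libraries share the step between monocytes and the rest, which most genes follow. Between members, Klf6 and Nr4a1 had r = 0.952 on this scale and 0.770 among protein-coding transcripts alone, and Nr4a2 and Nr4a3 had 0.892 and 0.816.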

How the data were processed

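For PBMCs, the authors deposited RSEM expected counts and TPM per gene; the submitters' processing notes also name Trim Galore, STAR and featureCounts, and builds mm10 and hg38. For surface RNA, the authors deposited kallisto TPM per transcript, from reads whose duplicates were removed by barcode; the transcript release is not given in the sources used here.

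Rounded to integers, the expected counts were tested with edgeR 4.0.16 (TMM, filterByExpr, quasi-likelihood fit of all 9 libraries, Benjamini-Hochberg over 11635 genes). Surface TPM were summed by gene name, and genes above 10 TPM in at least 3 of 15 libraries were tested with limma 3.58.1 (trend) on log2(TPM + 1). Tests were checked on simulated data. DESeq2 1.42.0, other scalings and filters and leaving out each library were alternatives. In alternative fits the 6 members were kept past the count filter. Replicates of a group differed beyond counting noise. The surface depth is unknown.

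The members and gene lists were chosen with earlier results of these data known. Named are all members, up to 4 called genes of each list with the largest change, and the 3 genes closest in pattern to each member. Klf1 was named after its values were seen, and the genes named with no value of their own are examples of their list. Some genes that this rule names are not reported here.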

Additional observations from a re-analysis of the deposited data

How the results depend on the processing

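For WT against ct, 275 genes were called, 170 with DESeq2 and 484 with no filter on low counts, and 168 (without WT replicate 2) to 253 without 1 of the 9 libraries. For Y against WT, 146 were called, 95 with DESeq2, 366 with no filter and 52 to 170 without 1 library, with 52 to 82 where a Y library, 81 where WT replicate 2 and 80 where WT replicate 3 was left out. For Y against ct, 82 were called, 257 with no filter and 34 to 167 without 1 library. It was 34 to 49 where a Y library and 54 where ct replicate 2 was left out. The 167, without ct replicate 3, were 69.5% higher, against 37.8% of the 82. With no filter, 49.2% of the calls for WT against ct were higher, against 32.4%, and 51.8% for Y against ct. The median log2 difference of the 6 genes stayed between 0.22 and 0.36 for WT against ct without 1 library, lowest without ct replicate 3. Each of the 6 kept its sign in all 15 alternatives of each blood comparison. Across all groups compared, the samples share a replicate number only: deviations of same-numbered libraries correlated between −0.06 and 0.06 in blood and between −0.33 and 0.56 on the surface, where T and NK cells of the same number had 0.56, 0.27 and 0.46. With that number as a block, 234, 74 and 128 genes were called for WT against ct, Y against ct and Y against WT, and the calls of Klf16 and Ace (Y against WT) and of F13a1 and Ier3 (WT against ct) ended. On the surface, 96.0% of the calls were higher in monocytes, 69.9% among protein-coding transcripts alone and 69.6% after quantile normalization. The median of the 6 genes for monocytes was 3.90, and 3.12 with a pseudocount of 5, 1.09 among protein-coding transcripts alone, 3.11 without rRNA and the 3 microRNA transcripts that dominate HSPCs and 1.32 after quantile normalization. Among the 6, Nr4a2 (1.09) turned to −0.50 among protein-coding transcripts alone and −0.78 after quantile normalization, and Nr4a3 (0.07) to −2.07 and −1.26, to −0.0654 with a pseudocount of 5, to −0.22 without rRNA and those transcripts, to −0.18 without monocyte replicate 2 and to just below 0 without NK replicate 1. Of other genes, Klf10, Srf and Mef2c changed sign among protein-coding transcripts alone (−0.66, −0.37 and −0.23), and Klf10, Srf, Mef2c and Pou2f2 after quantile normalization (−0.54, −0.0872, −0.26 and −0.21). Genes called there were 4902, 1181 with a filter of 50 TPM, 20482 with no filter, 7796 without rRNA and those transcripts, and 1091 to 4925 without 1 library, of which 1091 to 1105 without a monocyte library, since the filter asks for 3 libraries. The cause of these moves was not tested, except that the filters change how many genes are tested. Depth limits Nr4a2 in blood, at 3 to 21 counts.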
